A study of Mus musculus with 4 samples.

Results

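Transcription factors of liver and gut endoderm were read in bulk RNA from cultured mouse AGM explants, the aorta-gonad-mesonephros region in which blood stem cells arise. The set held 8 genes, chosen by symbol: Hnf4a, Foxa1, Foxa2, Foxa3, Prox1, Onecut1, Nr1h4 and Nr5a2. All 8 were found among the 49997 genes of the count tables. The 4 libraries came from C57BL/6J explants of stages E10.5 and E11.5, kept on filters for 48 hours with hydrocortisone in the medium of all of them. Of these, 2 libraries were untreated and 2 came from explants given 5 µM CCCP, a protonophore that dissipates the proton gradient across the inner mitochondrial membrane. No vehicle is named for the untreated group. The series design speaks of E10.5 alone and of c-kit+ stem cells, whereas the extraction protocol describes RNA of whole explants. No label says whether replicates were separate pools of embryos, so p-values measure only the spread between these libraries, which may be technical.

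Hnf4a encodes a nuclear receptor that drives most of the hepatocyte programme, including plasma protein genes. The Foxa proteins are pioneer factors that open chromatin in endoderm before liver genes are switched on, and Prox1 and Onecut1 act in early hepatoblasts. Nr1h4 encodes the bile acid receptor FXR, and Nr5a2 encodes LRH-1, its partner in bile acid and cholesterol metabolism. None of these genes is confined to liver. Foxa2 and Foxa1 also mark floor plate, notochord and gut, Prox1 marks lymphatic endothelium, and Onecut1 is expressed in spinal motor neurons.

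The promoters of Hnf4a, Foxa3 and Foxa1 are shown because the first pair had the most negative fold changes of the set and Foxa1 the least negative. They are RefSeq sequences of build GRCm38.p6 (the assembly behind mm10), 300 bases each, from 250 before to 50 after an annotated start, on the strand of the gene. Capitals mark matches on either strand to the HNF1 half-site (GTTAAT), the ONECUT core (ATTGAT) or the FOXA core (TGTTTAC), and on the gene's own strand to the TATA box (TATAAA). Hnf4a has an upstream start at chr2:163506607-163506906 and a downstream start at chr2:163546905-163547204. Foxa3 lies at chr7:19023490-19023789 and Foxa1 at chr12:57546062-57546361, both on the minus strand.
Hnf4a upstream start: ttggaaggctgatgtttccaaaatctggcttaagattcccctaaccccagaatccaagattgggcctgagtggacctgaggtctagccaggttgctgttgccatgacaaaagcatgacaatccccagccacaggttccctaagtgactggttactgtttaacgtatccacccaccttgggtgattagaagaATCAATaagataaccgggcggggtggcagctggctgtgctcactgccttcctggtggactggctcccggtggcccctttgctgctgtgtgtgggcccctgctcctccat
Hnf4a downstream start: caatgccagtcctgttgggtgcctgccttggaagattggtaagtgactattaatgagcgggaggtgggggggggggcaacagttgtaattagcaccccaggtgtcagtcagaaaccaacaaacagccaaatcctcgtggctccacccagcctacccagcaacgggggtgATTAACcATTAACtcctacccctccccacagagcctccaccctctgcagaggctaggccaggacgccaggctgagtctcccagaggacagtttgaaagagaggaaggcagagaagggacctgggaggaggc
Foxa3 start: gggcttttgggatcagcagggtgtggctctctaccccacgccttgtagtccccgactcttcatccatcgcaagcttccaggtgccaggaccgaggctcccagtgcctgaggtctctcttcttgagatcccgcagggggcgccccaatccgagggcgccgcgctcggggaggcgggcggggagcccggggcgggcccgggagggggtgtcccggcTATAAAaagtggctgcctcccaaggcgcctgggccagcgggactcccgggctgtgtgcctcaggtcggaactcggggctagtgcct
Foxa1 start: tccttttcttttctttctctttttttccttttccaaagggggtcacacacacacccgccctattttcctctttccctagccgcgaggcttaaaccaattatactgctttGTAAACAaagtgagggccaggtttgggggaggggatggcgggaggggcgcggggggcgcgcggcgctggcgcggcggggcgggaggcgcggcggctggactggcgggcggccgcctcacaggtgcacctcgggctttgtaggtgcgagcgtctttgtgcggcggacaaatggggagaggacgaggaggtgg

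The downstream Hnf4a promoter held 2 HNF1 half-sites, whose first bases lie 81 and 74 bases before the start. The upstream promoter held an ONECUT core 59 bases before the start. The Foxa3 promoter held a TATA box 36 bases before the start and the Foxa1 promoter a FOXA core 141 bases before it. Over all 13 promoters listed for the 8 genes, 4 held an HNF1 half-site and 2 an ONECUT core, against 7.1% and 7.54% of all 32851 promoters of that length. The FOXA core was in 1 of the 13 and in 3.65% of all promoters, and the TATA box in 1 of the 13 and in 8.32%. Neither the HNF4 element (CAAAGTCCA, 0.475% of all promoters) nor the NR5A core (AAGGTCA, 4.72%) was in any of the 13. These are matches of letters in short windows, and because the counts are summed over all exons of a gene they do not tell which Hnf4a start was in use.

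Library totals ran from 37360968 to 48827826 counted reads. A level of 3 counts, the floor used here, was 0.0599 to 0.0827 CPM (counts relative to library size, with TMM scaling). Of the blood stem and progenitor markers, Kit, the stem cell factor receptor, was at 47.6 to 63.2 CPM. Ptprc, the leukocyte antigen CD45, was at 6.85 and 6.82 CPM untreated and 3.65 and 3.39 CPM with CCCP. Spn was at 1.26 and 1.07 CPM untreated and 0.206 and 0.496 CPM with CCCP. Kit, Runx1, Gata2, Myb, Itga2b and Cd34 overlapped between the groups. RNA of whole explants does not show which cells these reads came from. Endothelial Cdh5 was at 134 to 177 CPM, mesonephric Pax2 at 23.8 to 41.9 CPM and neuronal Tubb3 at 369 to 506 CPM. The quasi-likelihood test of edgeR, with Benjamini-Hochberg adjusted p-values and a threshold of 0.05, called 0 of 19837 genes (0.0%), and 2899 (14.6%) had an unadjusted p under 0.05. DESeq2 called 594 genes (2.99%).

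In these libraries 7 of the 8 factors passed the filter on low counts, and all 7 had a log2 fold change below 0 for CCCP over untreated, as had 50.8% of all genes tested. In 6 of the 7 both CCCP libraries lay below both untreated libraries, where 24.8% of all genes tested did so. The edgeR adjusted p-values of the 7 ran from 0.144 to 0.896, so none was called. An unadjusted p under 0.05 with a lower level was found for 4 of them, Hnf4a, Foxa2, Foxa3 and Prox1, and for 9.16% of all genes tested. DESeq2 called Hnf4a and Foxa3 lower, a direction in which it called 2.7% of genes. The same 2 factors had a log2 fold change of -2 or lower, as had 1.24% of all genes tested. With the replicate number as a block, edgeR called Hnf4a, Foxa3 and Prox1 lower, beside 6.88% of all genes, and with no filter on low counts it called Hnf4a, Foxa3, Prox1 and Foxa2, beside 2.76%. The median log2 fold change of the 7 factors was -0.80, beside -0.008 for all genes tested. Leaving out untreated replicate 2 gave -0.43, and leaving out untreated replicate 1 gave -1.17. Because whole explants were sequenced, fewer cells of a type and less RNA per cell cannot be told apart.

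**Figure D1:**
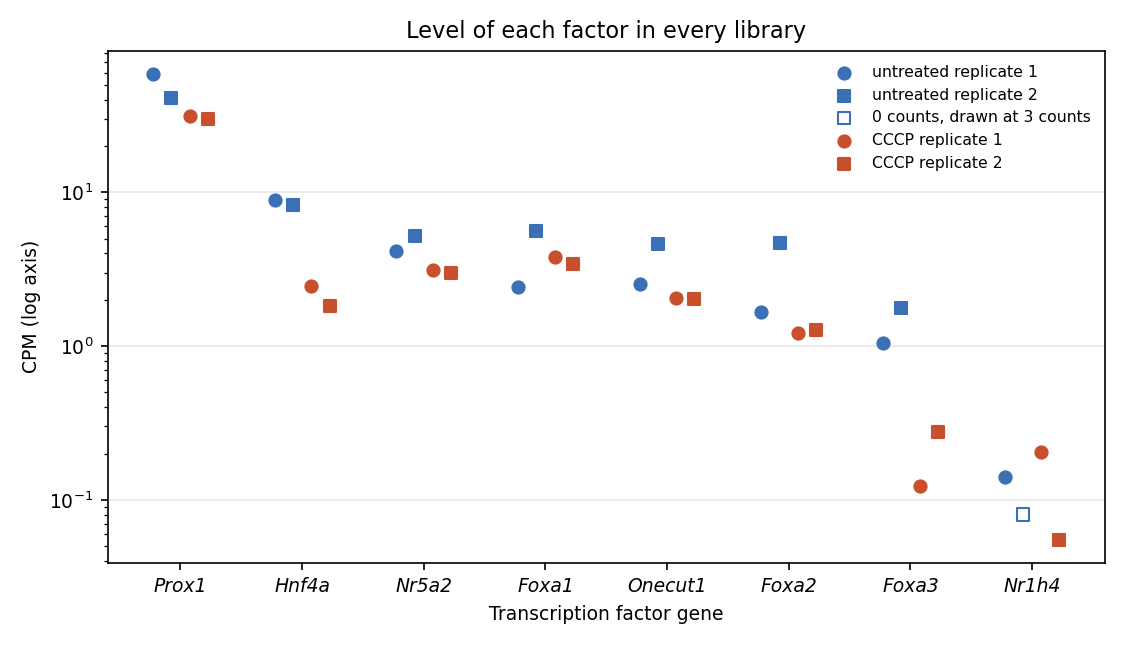
CPM of each factor (log axis) in the 2 untreated libraries (blue) and the 2 CCCP libraries (orange), 1 point per library, with circles for replicate 1 and squares for replicate 2. Prox1 lies above the other factors in every library, Hnf4a and Foxa3 show the widest gaps between the groups, and the open square is the untreated library with 0 counts of Nr1h4, drawn at the level of 3 counts.

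Per kilobase of exon, Prox1 was the most abundant factor, at 3.43 to 6.77 CPM per kilobase over the 4 libraries, and its range did not overlap that of any other. Onecut1 came next at 1.10 to 2.52, then Hnf4a at 0.387 to 1.91, Foxa1 at 0.701 to 1.60, Foxa2 at 0.513 to 1.99 and Nr5a2 at 0.587 to 1.02 CPM per kilobase. Each of these overlapped its neighbour in the order. Foxa3 followed at 0.0606 to 0.866 CPM per kilobase and Nr1h4 was last, between 0 and 0.0786. The order was not the same in the groups: Hnf4a stood in place 3 of the untreated mean levels and in place 6 of the CCCP mean levels.

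Hnf4a (chromosome 2, 163506811 to 163572907, plus strand, mm10) had the smallest p-value of the set. It had 449 and 311 counts in untreated replicates 1 and 2, and 119 and 66 counts in CCCP replicates 1 and 2. In CPM these were 8.97 and 8.32 untreated and 2.45 and 1.82 with CCCP. The untreated libraries were close to each other and both CCCP libraries were far below them. The level was 8.64 ± 0.462 CPM untreated and 2.14 ± 0.447 CPM with CCCP (SD, n = 2 in each group), 4.03-fold lower. On the log2 scale this was -2.01 (SE 0.271; edgeR adjusted p 0.144, DESeq2 adjusted p 4.37e-07), and 1.22% of all genes tested had a more negative fold change. The gene Hnf4aos, on the opposite strand within the Hnf4a span, shares no exon bases with it and had at most 4 counts in any library.

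The Foxa paralogs differed in size and in how far they rested on 1 library. Foxa3 (chromosome 7, 19013283 to 19023539), the member of the family best known for adult hepatocyte genes, had 52 and 66 counts untreated and 6 and 10 counts with CCCP. These counts were 1.04 and 1.76 CPM against 0.124 and 0.276 CPM, with a wide gap between the groups. A log2 fold change of -2.82 (SE 0.627; edgeR adjusted p 0.195, DESeq2 adjusted p 0.0235), or 7.08-fold lower, was the most negative of the set. Foxa3 passed the filter on low counts through its untreated libraries, so the filter itself favoured a decrease.

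Foxa2 (chromosome 2, 148042877 to 148046969), a pioneer factor of definitive endoderm, floor plate and notochord, had 1.66 and 4.71 CPM untreated and 1.22 and 1.27 CPM with CCCP. Untreated replicate 2 stood alone, and replicate 1 was only slightly above the CCCP libraries. Its log2 fold change was -1.35 (SE 0.540; edgeR adjusted p 0.335), and -0.40 without untreated replicate 2. Foxa1 (chromosome 12, 57540628 to 57548029) had 2.44 and 5.56 CPM untreated and 3.81 and 3.39 CPM with CCCP. Both CCCP libraries lay between the untreated ones, so the groups overlapped. Its log2 fold change of -0.14 (SE 0.427; edgeR adjusted p 0.896) turned to 0.58 without untreated replicate 2 and was -0.62 without untreated replicate 1. An exon of Ttc6 on the opposite strand shares 63 bases with Foxa1, and reads over them were not assigned to either gene.

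The balance within the family does not depend on library scaling. For every 100 counts of Foxa1 there were 42.6 and 31.7 counts of Foxa3 untreated and 3.24 and 8.13 with CCCP. For Foxa2 the values were 68.0 and 84.6 per 100 counts of Foxa1 untreated and 31.9 and 37.4 with CCCP. Both ratios were lower in both CCCP libraries than in either untreated library. With 2 libraries per group an exact two-sided permutation test of such a ratio cannot go below p = 0.333.

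Prox1 (chromosome 1, 190118035 to 190170827), a homeodomain factor of hepatoblasts and of lymphatic endothelium, was well counted, with 2941 and 1545 counts untreated and 1531 and 1080 with CCCP. Its CPM were 58.8 and 41.3 untreated and 31.5 and 29.8 with CCCP. The groups did not overlap, but the untreated libraries were further apart than the nearer of them was from CCCP. Its log2 fold change was -0.71 (SE 0.188; edgeR adjusted p 0.230, DESeq2 adjusted p 0.0528), or 1.63-fold lower. Without untreated replicate 1 it was -0.42. Fold changes went with exon length across all genes (Spearman's rho -0.35, genes not being independent replicates). Prox1 has 8674 exon bases, the most of the set, and stood at -0.52 with the length trend removed. The antisense gene Prox1os shares 133 exon bases with Prox1 and had 15 to 32 counts per library.

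Onecut1 (chromosome 9, 74861921 to 74889648), also called HNF6 and a regulator of hepatoblasts, had 2.54 and 4.60 CPM untreated and 2.06 and 2.01 CPM with CCCP. Untreated replicate 2 was again the high library, and the CCCP libraries were nearly equal. The log2 fold change was -0.80 (SE 0.382; edgeR adjusted p 0.386), and -0.30 without untreated replicate 2. Its paralog Onecut2, listed here with both liver regulators and neuronal genes, had 33.7 and 48.1 CPM untreated and 22.4 and 22.2 CPM with CCCP. Onecut2 had a log2 fold change of -0.88 (SE 0.194; edgeR adjusted p 0.195, DESeq2 adjusted p 0.0100).

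Nr5a2 (chromosome 1, 136842562 to 136960448) had 4.16 and 5.16 CPM untreated and 3.11 and 2.98 CPM with CCCP. The groups were apart by about the distance between the untreated libraries. The log2 fold change was -0.61 (SE 0.274; edgeR adjusted p 0.366). Nr1h4 (chromosome 10, 89454234 to 89533645) was barely counted, with 7 and 0 counts untreated and 10 and 2 with CCCP. It did not pass the filter and was not tested. At this depth the 0 allows up to 0.0802 CPM, and no difference in Nr1h4 was detectable.

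The textbook targets of these receptors ranged widely in level. Of 14 genes on that list, 8 passed the filter. Of these, 6 had a log2 fold change below 0, as had 50.8% of all genes tested, and the median was -0.71. Both CCCP libraries lay below both untreated libraries in 4 of the 8 (24.8% of all genes tested) and above them in 1 (24.0%). Nr0b2, the classic FXR target SHP, was between 0 and 0.0799 CPM, and Slc51b, a bile acid exporter subunit, had 0 counts throughout. Slc51a had at most 2 counts in any library. Abcb11 had 18 and 6 counts untreated, Cyp7a1 6 and 12, and Cyp8b1 6 and 4, each with 0 in both CCCP libraries. Against a floor of 3 counts per library these were at least 3.60-fold, 3.05-fold and 1.57-fold lower. None of these genes passed the filter, so none was tested. Fgf15, the bile acid hormone of the ileum, had 4.52 and 14.3 CPM untreated and 7.97 and 5.76 CPM with CCCP, and its receptor gene Fgfr4 had 20.6 and 8.24 CPM untreated and 13.3 and 8.96 CPM with CCCP. Both overlapped between the groups. Klb, the co-receptor for FGF15, did not overlap, at 4.12 and 3.32 CPM untreated and 0.185 and 0.413 CPM with CCCP. Its log2 fold change was -3.66 (SE 0.490; edgeR adjusted p 0.144, DESeq2 adjusted p 1.73e-07). Shbg, a hepatic carrier of sex steroids, stood at -3.15 (SE 0.533; edgeR adjusted p 0.148, DESeq2 adjusted p 0.00443). With 6 and 7 counts in the CCCP libraries, Shbg passed the filter through its untreated libraries, and so did Klb, with 9 counts in CCCP replicate 1. For both genes the filter itself favoured a decrease. Scarb1, the receptor for high-density lipoprotein, was 34.3 and 39.5 CPM untreated and 42.3 and 43.6 CPM with CCCP.

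The factors were next set beside 30 plasma protein genes, the main secretory products of hepatoblasts. Of 29 tested, 28 had both CCCP libraries below both untreated libraries, where 24.8% of all genes tested did so. All 28 had an unadjusted edgeR p under 0.05 with a lower level, beside 9.16% of all genes tested. After adjustment edgeR called none. DESeq2 called 21 of them lower, beside 2.7% of all genes, and Alb and Afp were not among the 21. With the replicate block edgeR called all 28 lower, Alb (adjusted p 0.00164) and Afp (adjusted p 0.00137) included, beside 6.88% of all genes. Their median log2 fold change was -4.77, a 27.3-fold lower level, and it stood at -4.77 too with Itih1 at its bound. It was -6.38 without CCCP replicate 2 and -4.002 without CCCP replicate 1. That list was drawn up with earlier results of these data known and is no independent evidence of its direction. Afp, the fetal albumin, had 860 and 577 CPM untreated and 1.69 and 44.9 CPM with CCCP. Alb, albumin itself, had 376 and 151 CPM untreated and 0.165 and 11.1 CPM with CCCP. The CCCP libraries thus differed widely between themselves, with 8 and 404 counts of Alb. F2, prothrombin, was 15.2 and 6.07 CPM untreated and 0.124 and 0.165 CPM with CCCP, a log2 fold change of -6.20 (SE 0.620; edgeR adjusted p 0.122). Itih1, a chain of a hyaluronan-binding inhibitor, had 153 and 68 counts untreated and 0 in both CCCP libraries, at least 33.7-fold lower against a floor of 3 counts per library. F2, with 6 counts in each CCCP library, Itih4, with 2 in each, and Itih1 passed the filter on low counts through their untreated libraries. So did much of the rest of the list. Among them were Alb, Gc, Ahsg, Apoh, Fga, Fgb, Fgg, Plg, Kng1 and Itih3, each under the minimum count of 10 in a CCCP library. For such genes the filter itself favoured a decrease, which limits the counts of lower genes given above.

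All 7 factors tested had smaller decreases than the median of the plasma protein genes. Foxa3 came nearest, 1.95 above that median on the log2 scale, and 24 of the 29 plasma protein genes had a more negative fold change than it. Hnf4a was 2.76 above the median, with 26 of 29 more negative. The 3 plasma protein genes with smaller decreases than Hnf4a, or none, were Vtn (-1.40), Cfb (-1.43) and Fetub (0.99), named after their values were seen. Foxa2, Onecut1, Prox1, Nr5a2 and Foxa1 were 3.42 to 4.63 above it, with 28 of 29 more negative in each case.

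**Figure D2:**
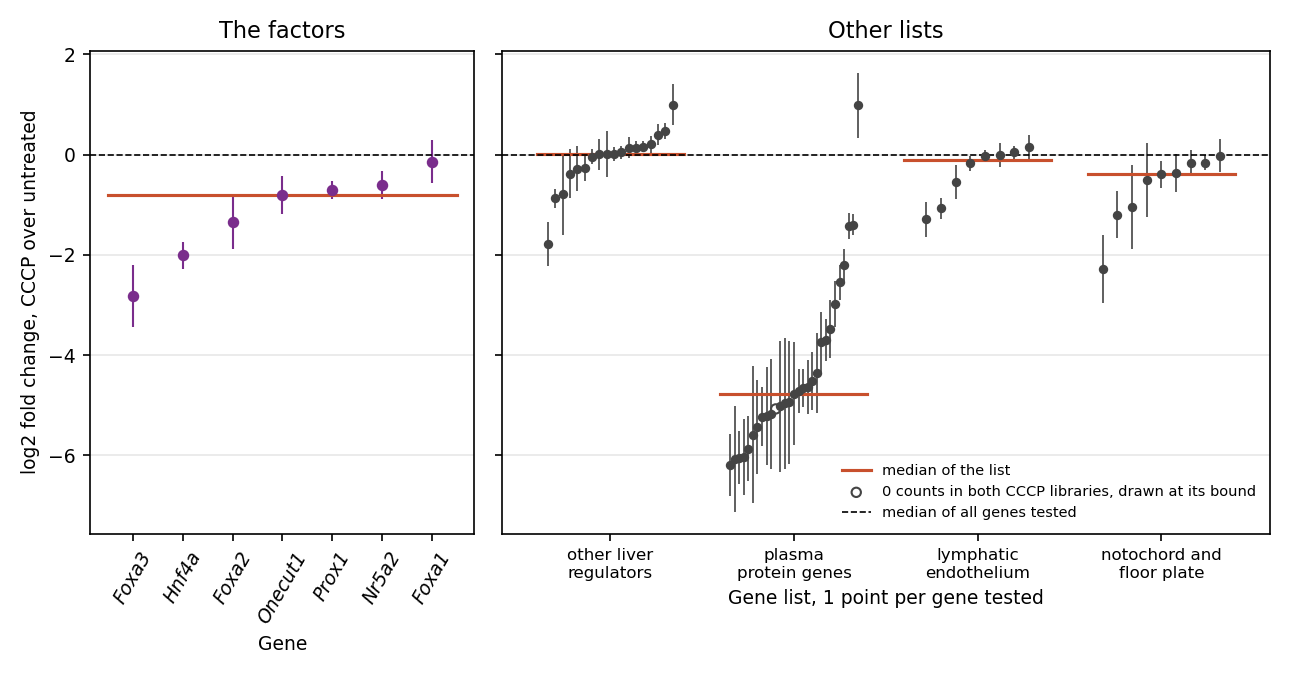
Log2 fold change of CCCP over untreated (vertical axis) with its SE, for the 7 factors tested (left) and for each gene tested of 4 other lists (right; the open symbol is Itih1 at its bound), with orange lines at the list medians and a dashed line at the median of all genes tested. Foxa3 at -2.82 and Hnf4a at -2.01 are the lowest factors, whereas the plasma protein genes centre on -4.77 and the other liver regulators on 0.01.

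Ratios within a library need no scaling. Hnf4a had 4.15 and 6.69 counts per 1000 plasma protein counts untreated and 34.8 and 12.8 with CCCP. Leaving Alb and Afp out of the denominator gave 9.71 and 16.2 untreated and 35.7 and 21.2 with CCCP. Foxa3 had 0.481 and 1.42 counts per 1000 plasma protein counts untreated and 1.75 and 1.94 with CCCP, the smallest shift of the set. Prox1 had 27.2 and 33.2 untreated and 447 and 210 with CCCP. The denominator summed to 108124 and 46490 counts untreated and to 3424 and 5142 with CCCP. The ratio was higher in both CCCP libraries than in both untreated libraries for all 8 factors and for 98.4% of all genes tested, so this count is not particular to the factors and restates the lower plasma protein counts.

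**Figure D3:**
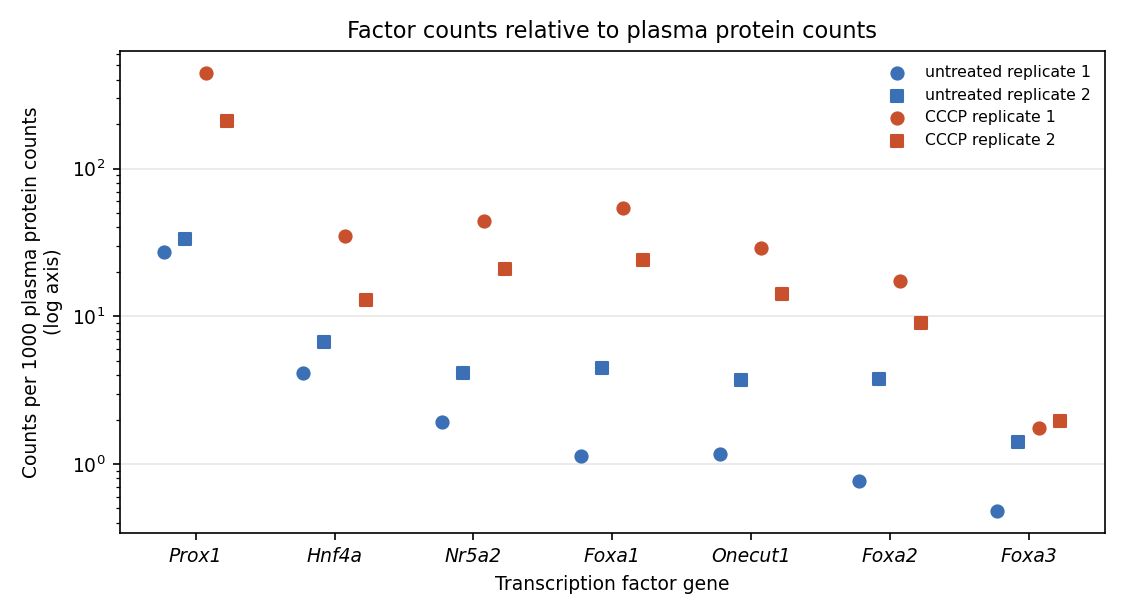
Counts of the 7 tested factors per 1000 counts of the 30 plasma protein genes (log axis), 1 point per library, blue for untreated and orange for CCCP. Every CCCP point lies above both untreated points of the same gene, narrowly for Foxa3 (1.42 against 1.75 at the nearest) and widely for Prox1 (33.2 against 210).

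The other regulators of the liver network did not share one direction. Of 21 genes listed, 18 passed the filter, with 7 log2 fold changes below 0 and 11 above it, where 50.8% of all genes tested were below 0. The median of 0.01 ran from -0.05 to 0.14 with 1 library left out. In 3 of the 18 both CCCP libraries lay below both untreated libraries (24.8% of all genes tested), and in 5 they lay above (24.0%). Creb3l3, a membrane-bound factor of hepatic lipid metabolism, had 2.30 and 1.47 CPM untreated and 0.515 and 0.579 CPM with CCCP, a log2 fold change of -1.79 (SE 0.442; edgeR adjusted p 0.216). Atf5, which also serves the mitochondrial stress response, had 206 and 261 CPM untreated and 343 and 300 CPM with CCCP. Its log2 fold change was 0.46 (SE 0.161; edgeR adjusted p 0.296). The orphan receptor genes Nr2f1 and Nr2f2 and the retinoid receptor gene Rxra, the next most abundant of the list, stood between 0.05 and 0.16.

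Marker lists of liver progenitors and of other tissues in which these factors act were read beside them. The hepatoblast list of 9 genes shares Alb, Afp, Ttr and Apoa1 with the plasma protein list. Only those 4 had both CCCP libraries below both untreated libraries, as had 24.8% of all genes tested. Its epithelial members Krt8, Krt18, Cdh1 and Epcam had log2 fold changes of 0.24 to 0.47 (edgeR adjusted p 0.447 to 0.643), and all 4 overlapped between the groups. With the replicate block edgeR called Krt8 (adjusted p 0.0147) and Krt18 (adjusted p 0.0252) higher, beside 754 of all 19837 genes. Dlk1, an imprinted gene that marks hepatoblasts but also many mesodermal tissues, stood at -0.05. In the lymphatic list, 2 of 8 genes tested had both CCCP libraries below both untreated libraries, a share near the 24.8% of all genes tested. They were Lyve1 at -1.29 (SE 0.347; edgeR adjusted p 0.230, DESeq2 adjusted p 0.0340) and Mmrn1 at -1.07 (SE 0.211; edgeR adjusted p 0.171, DESeq2 adjusted p 0.00255). Flt4, the receptor for lymphatic growth factors, stood at -0.18, and the chemokine gene Ccl21a had 0 counts throughout. The summed level of that list was 527 to 589 CPM untreated and 475 to 534 CPM with CCCP, so its ranges overlapped. The part of lymphatic cells in the Prox1 value was not tested.

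The notochord and floor plate list had 9 of 9 tested genes below 0, where 50.8% of all genes tested were, with a median of -0.40. Untreated replicate 2 stood above the other libraries, and without it the median was 0.11. Its summed level was 242 and 393 CPM untreated and 266 and 261 CPM with CCCP. Shh, the signal secreted by notochord and floor plate, had 4.08 and 25.8 CPM untreated and 9.48 and 11.6 CPM with CCCP. Nkx2-2, a homeodomain factor of the ventral neural tube, had 1.48 and 5.40 CPM untreated and 0.845 and 0.551 CPM with CCCP. The notochord gene T followed the same library, at 0.499 and 2.65 CPM untreated and 0.474 and 1.05 CPM with CCCP, and Noto had 0 counts throughout. Foxa2 and Foxa1 were highest in that same library, but so were Foxa3, Onecut1 and Nr5a2. The part of notochord and floor plate in the Foxa2 and Foxa1 values was not tested.

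**Figure D4:**
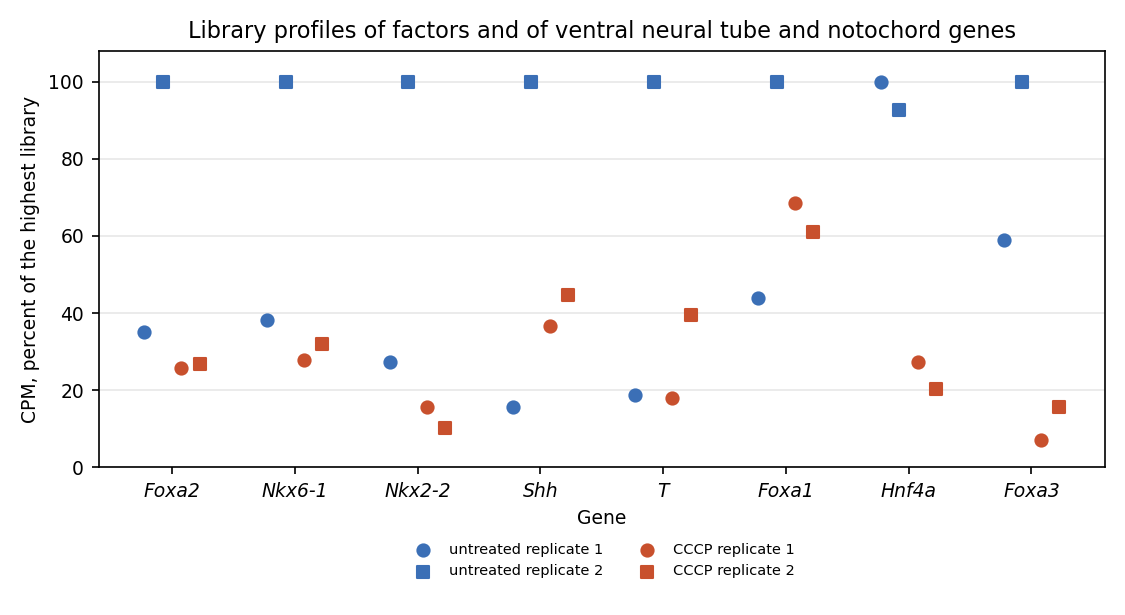
CPM as a percent of the highest library (vertical axis, from 0) for 4 of the factors and for the ventral neural tube and notochord genes Nkx6-1, Nkx2-2, Shh and T, 1 point per library. Untreated replicate 2 is the highest library for Foxa2, Foxa1, Foxa3 and the 4 other genes, with Foxa2 at 35.2% in untreated replicate 1. Hnf4a instead stands at 100% and 92.7% in untreated replicates 1 and 2, and at 27.3% and 20.3% with CCCP.

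Genes of other endodermal organs differed widely in level. The most abundant were Sox2 at 69.2 to 128 CPM, Sox9 at 56.9 to 64.1 CPM and Insm1 at 33.4 to 45.4 CPM, which also mark neural and other tissues and overlapped between the groups. Of the pancreatic regulators, Pdx1 was between 0.0535 and 0.165 CPM, and Neurog3 had 0.459 and 6.44 CPM untreated and 0.536 and 0.882 CPM with CCCP, again high in untreated replicate 2 alone. Nkx2-1, a factor of lung and thyroid, had 31 and 39 counts untreated and 0 in both CCCP libraries. Isx, an intestinal homeobox gene, went the other way, with 0 counts in both untreated libraries and 12 and 26 with CCCP, at least 6.88-fold higher against a floor of 3 counts per library. The edgeR adjusted p-values of Nkx2-1 and Isx were 0.150 and 0.206, and 0.00317 and 0.0138 with the replicate block. DESeq2 called Nkx2-1 (adjusted p 0.00200) and gave no adjusted p for Isx. Nkx2-1 passed the filter on low counts through its untreated libraries and Isx through its CCCP libraries, so the filter favoured these directions. The spinal and peripheral neuron list had a median of -0.21 over 10 genes, which turned to 0.02 with untreated replicate 1 left out and to 0.06 with untreated replicate 2 left out. With 1 library left out, the adrenogonadal median (0.03 over 9 genes) ran from -0.40 to 0.37 and the mesonephric median (-0.03 over 9 genes) from -0.44 to 0.33, so no direction is given for these lists.

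Each tested factor was compared with 13357 other genes of mean CPM of at least 1 by the root mean square difference of centred log2 CPM over the 4 libraries. The genes nearest to Hnf4a were Samd9l (0.15), Hkdc1 (0.15) and Igsf1 (0.20). Nearest to Foxa3 were Pnliprp1 (0.29), the coagulation factor gene F10 (0.40) and the retinol carrier Rbp4 (0.40), at greater distances than for any other factor. Foxa2 was nearest to Nkx6-1 (0.08), a regulator of ventral neural progenitors and pancreatic beta cells, and then to Nr1h5 and Sox2ot. Foxa1 was nearest to Upp1 (0.09), then to Mnx1, a motor neuron and pancreatic factor, and Fam81a. Prox1 was nearest to Slc17a9 (0.02), Onecut1 to Agtr1a (0.02) and Nr5a2 to Kctd12b (0.01). These matches rest on 4 libraries and are a description.

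Leaving out each library in turn moved the factors to different degrees. Hnf4a stayed between -1.82 and -2.25. Foxa3, with 6 and 10 counts in the CCCP libraries, kept its sign but ran more widely, from -2.33 to -3.47. Nr5a2 ran from -0.43 to -0.75 and Prox1 from -0.42 to -0.92. Foxa2 ran from -0.40 to -1.91 and Onecut1 from -0.30 to -1.17, each at its smallest without untreated replicate 2 and at its largest without untreated replicate 1. The log2 fold change was below 0 for 7 of 7 factors in each of these fits except the one without untreated replicate 2, where Foxa1 stood at 0.58.

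**Figure D5:**
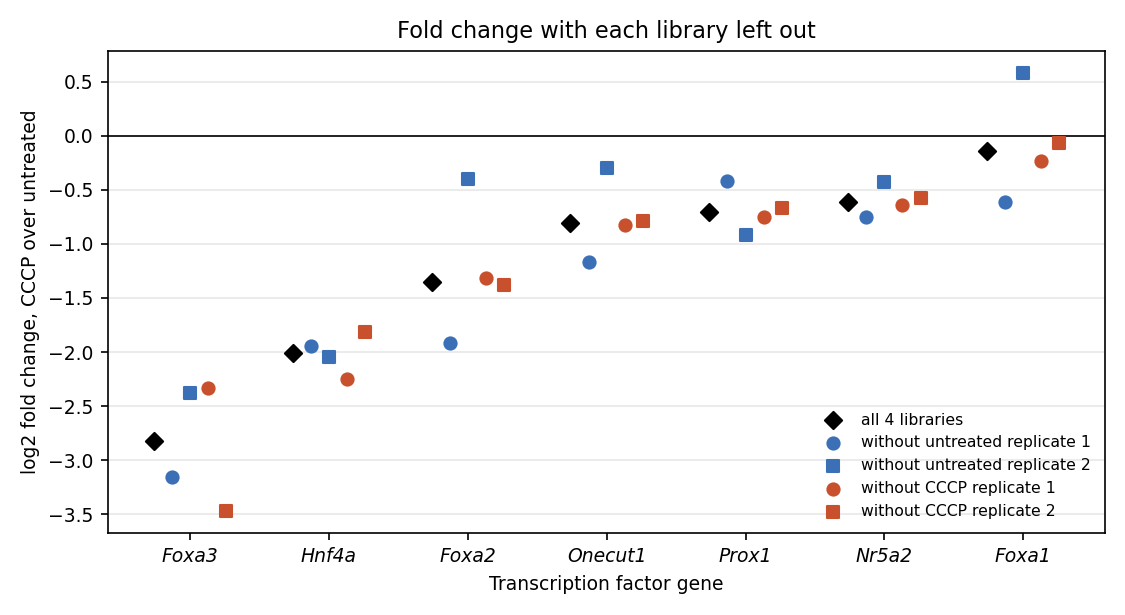
Log2 fold change of CCCP over untreated (vertical axis) for the 7 factors tested, from all 4 libraries (black) and with each library left out (blue where an untreated and orange where a CCCP library is missing). Hnf4a keeps within -1.82 to -2.25, whereas Foxa2, Onecut1 and Foxa1 shift most when untreated replicate 2 is missing.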

How the data were processed

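Poly(A) RNA of 4 explant libraries was sequenced after directional library preparation, per the labels' protocols. Per the file headers, the authors ran featureCounts 2.0.3 over mm10 NCBI RefSeq exons, and the deposited unit is the raw count per gene. The headers set no option for strand, fragment counting, multi-mapping reads or reads over several genes, so genes with opposite-strand neighbours or close paralogs are uncertain. HISAT2 and SAMtools appear in the submitters' processing notes. The exon length of each gene also comes from the deposited files.

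The counts were tested with edgeR 4.0.16 in R 4.3.3 (glmQLFit and glmQLFTest, TMM scaling, filterByExpr with minimum count 10 and minimum total 15, group as the sole term), two-sided, with Benjamini-Hochberg adjustment over 19837 genes and a threshold of 0.05. The SE is the log2 fold change divided by the square root of F. DESeq2 1.42.0 was an alternative. Log2 CPM used a prior count of 2. No row lacked a gene name.

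The 8 factors and all gene lists were chosen with earlier results of these data known. Lists were described by counts and medians, without a test. Named genes are the 8 factors, up to 4 of highest mean CPM and up to 4 of smallest p from each other list (not all are printed), and the 3 nearest profiles per factor. Other genes named for a count, a bound or a lack of reads (among them Nr0b2, Slc51a, Slc51b, Abcb11, Cyp7a1, Cyp8b1, Pdx1, Itih1, Krt18, Cdh1, Epcam, Noto and Ccl21a) and the blood and endothelial markers were chosen after their values were seen. Floors cover counting error only.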

Additional observations from a re-analysis of the deposited data

How the results depend on the processing

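Genes called at an adjusted p of 0.05 numbered 0 in the fit as reported (2899 at an unadjusted p under 0.05), 594 in DESeq2 (59 higher, 535 lower) and 1107 without a filter beyond 1 count (217 higher, 890 lower). With 1 library left out it ran from 1 to 34 (1 without untreated replicate 1 and without CCCP replicate 1, 22 without CCCP replicate 2, 34 without untreated replicate 2), the lone library being assumed to vary like the other group. The other scalings, the stricter filter, the robust fit and the removal of the exon-length trend gave 0.

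With the replicate number as a block (replicate block) it was 2118 (754 higher, 1364 lower), and 1297 (495 higher, 802 lower) with the length trend removed as well. Same-numbered libraries deviated together (correlation 0.36 over the genes tested), but the labels leave the meaning of the numbers unsaid and there are only 2 pairs. The replicate block gave -2.02 for Hnf4a (adjusted p 0.000481), -2.84 for Foxa3 (0.00766) and -0.69 for Prox1 (0.00634), and with the length trend removed -2.001, -2.92 and -0.51, all under the threshold in edgeR.

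DESeq2 called Hnf4a (-2.01) and Foxa3 (-2.83). Without the filter edgeR called Hnf4a (-1.997), Foxa3 (-2.81), Prox1 (-0.69) and Foxa2 (-1.34, adjusted p 0.0359). The cause of these differences was not tested. Foxa1 ran from -0.62 to 0.58 with 1 library left out, the one change of sign being without untreated replicate 2 (edgeR adjusted p 0.429). No alternative called Onecut1 or Nr5a2. The edgeR and DESeq2 adjusted p-values of Hnf4a ran from 1.97e-07 to 0.426 over all 13 alternatives. The median of the plasma protein genes ran from -6.38 to -4.002 with 1 library left out, the extreme being without CCCP replicate 2. The count of factors with every CCCP library below every untreated library was 6 or 7 of 7 with 1 library left out, an alternative chosen after seeing the data, where 34.1% to 41.2% of all genes did so. Depth limits Nr1h4, whose counts of 0 to 10 per library cannot show a difference.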
